A study of Mus musculus with 9 samples.

Results

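The alveolar type 1 genes described here are Ager, Aqp5, Pdpn, Hopx, Rtkn2, Clic5, Emp2, Cldn18, Akap5 and Gprc5a, 10 genes of the 18193 with a probe set of their own in the annotation used. Every probe set annotated to one of these symbols and to no other gene was taken, which gave 20 probe sets among the 27022 tested. Clic5 had 4, Emp2 and Akap5 had 3, Ager, Hopx and Cldn18 had 2, and Aqp5, Pdpn, Rtkn2 and Gprc5a had 1. All 20 were bright enough to be tested. RNA came from homogenised whole right lung of mice of the strains BL6 (C57/BL6), FVB/N and SV129. Hypoxic mice of each strain had spent 4 weeks at a reduced air pressure of 50 kPa and were measured on 2 arrays per strain. Normoxic mice had spent 4 weeks at 85 kPa and were measured on 1 array per strain, which makes 9 arrays in all. The labels name no transgene and give neither age nor sex, and they do not say whether each array is a separate animal. The p-values therefore rest on the spread among these 9 samples alone, and that spread may be technical.

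Alveolar type 1 cells are the very thin, flat cells that cover most of the gas exchange surface of the lung. They share a basement membrane with the capillaries, carry water and ions, seal the air space with tight junctions and respond to stretch. Type 2 cells, which make surfactant, can give rise to them during repair, and the Hippo pathway factors Yap1, Wwtr1 and Tead1 and the transcription factor Nkx2-1 take part in that step. The genes lie in several parts of this biology. Ager encodes the receptor RAGE, Aqp5 a water channel, Pdpn the membrane glycoprotein podoplanin, Cldn18 a tight junction claudin and Emp2 a small tetraspan membrane protein. Clic5 belongs to a family of chloride intracellular channel proteins, and Gprc5a is an orphan receptor induced by retinoic acid. Hopx is a homeodomain protein that does not bind DNA, and Akap5 is a scaffold for protein kinase A and calcineurin.

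All levels are log2 signals after quantile normalization, and a difference of 1 is a doubling. In lung homogenate, fewer cells of a type and less RNA per cell cannot be told apart. The members were present on every array, with no array value below 8.58, while the filter left out probe sets with a mean below 6.13. Normoxic FVB/N array 1 and hypoxic BL6 array 2 carried kidney transcripts. Over 8 kidney tubule genes the mean level was 13.02 and 12.29 on these arrays and 5.73 to 6.56 on the other 7. Normoxic FVB/N array 1 also carried brown fat and fast muscle transcripts (mean 9.63 over 8 genes, against 5.91 to 6.44 elsewhere). The same array had the lowest mean of the 10 members (12.33, against 12.59 to 13.15 elsewhere), of 20 other type 1 genes (11.93, against 12.33 to 12.59), of 11 type 2 genes (13.39, against 13.46 to 13.84) and of 8 endothelial genes (12.11, against 12.28 to 12.86). The part of the kidney and fat transcripts in these lower lung levels was not tested. Of 5 podocyte markers on the arrays 4 were tested, and Nphs1 averaged below the filter, with array values from 4.71 to 6.87. The mean of the 5 was 8.94 on hypoxic BL6 array 2, 8.72 on normoxic FVB/N array 1 and 8.33 to 8.79 elsewhere.

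**Figure D1:**
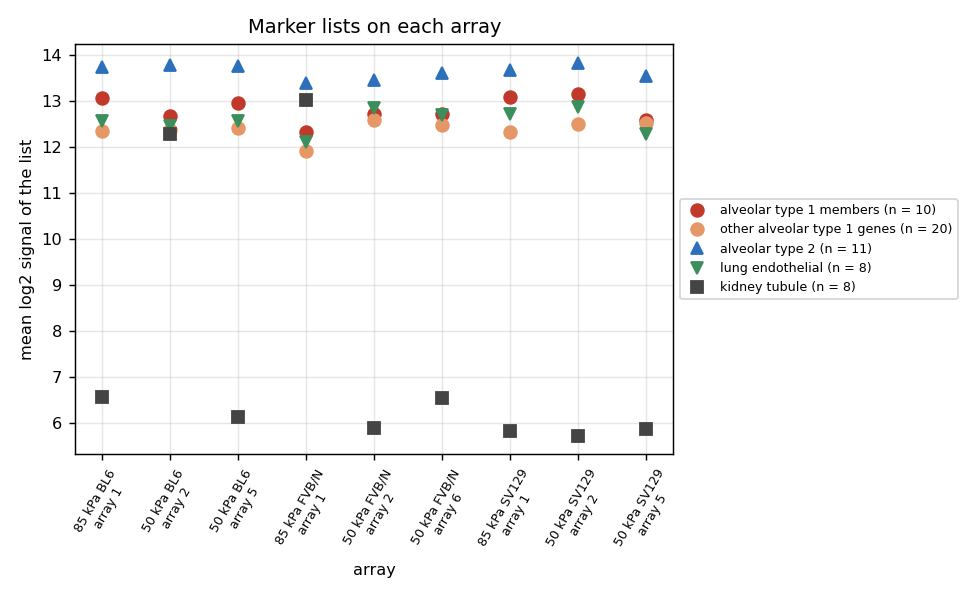
Mean log2 signal (vertical axis) of 5 gene lists, each gene by its brightest probe set, on each of the 9 arrays (horizontal axis). The kidney tubule points stand at 12.29 and 13.02 on hypoxic BL6 array 2 and normoxic FVB/N array 1 and between 5.73 and 6.56 elsewhere, and the points of the lung lists are lowest on normoxic FVB/N array 1.

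Strain was compared over both pressures, in a model with pressure as a term. Gprc5a was the only member whose probe set passed the test between strains, and its level was low in FVB/N. The FVB/N arrays read 10.69 and 10.89 in hypoxia and 10.41 in normoxia. The BL6 arrays read 13.15 and 13.23 in hypoxia and 12.96 in normoxia. The SV129 arrays read 13.18 and 12.10 in hypoxia and 12.52 in normoxia. All 3 FVB/N arrays thus lay below all 6 arrays of the other strains, and the gap to the nearest of them was wider than the range within FVB/N. In the deposited signal, before any normalization here, the FVB/N arrays read 1314 to 1896 and the others 4423 to 9589. Among all probe sets tested, 3.62% had all 3 FVB/N arrays below the rest, and Gprc5a was the only one of the 20 to do so.

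The Gprc5a level was 2.45 ± 0.240 (log2, SE) higher in BL6 than in FVB/N, a 5.47-fold difference, with a limma Benjamini-Hochberg adjusted p of 0.0010. It was 1.94 lower in FVB/N than in SV129 (-1.94 ± 0.240, a 3.83-fold difference, adjusted p = 0.0034). BL6 and SV129 differed by 0.51 ± 0.240 (adjusted p = 0.341), which is within the 1.08 that separates the hypoxic SV129 arrays from each other. Of the 20 member probe sets this was 1 called between BL6 and FVB/N (5% of them), where 2.07% of all probe sets were called and 1.52% were higher in BL6. It was also the only 1 of 20 between FVB/N and SV129, where the share of all probe sets was 2.89%, and 1.83% for those lower in FVB/N. Between BL6 and SV129, 0 of 20 passed, against 2.51% of all, and 1 of 20 had an unadjusted limma p under 0.05, against 15.9% of all. Without both arrays that carried kidney transcripts the Gprc5a differences were 2.38 and -1.86 (adjusted p = 0.0149 and 0.0179). Over all 21 alternative settings they ran from 2.34 to 2.66 and from -2.25 to -1.66, with adjusted p from 8.1e-05 to 0.0149 and from 0.00072 to 0.0301. Between pressures the level of Gprc5a differed by 0.24 ± 0.208 (adjusted p = 0.531).

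**Figure D2:**
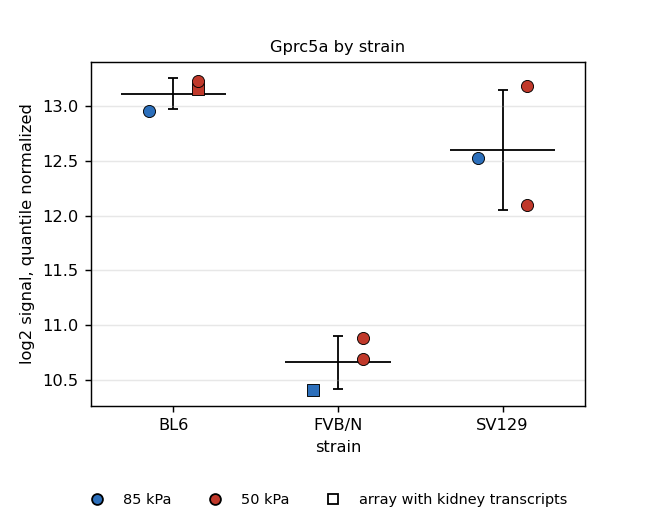
Gprc5a level (vertical axis, log2 signal) on each array by strain (horizontal axis), coloured by air pressure, with squares for the arrays that carried kidney transcripts and black lines and bars for the mean ± SD of the 3 arrays of a strain. The 3 FVB/N arrays sit between 10.41 and 10.89, below the other 6 at 12.10 to 13.23.

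The relatives of Gprc5a did not pass between strains. Gprc5b was 0.91 lower in FVB/N than in SV129 (-0.91, adjusted p = 0.052) and 0.34 higher in BL6 than in FVB/N (also not past the threshold). Gprc5c went the other way and was 1.09 higher in FVB/N than in SV129 (adjusted p = 0.346), and Gprc5d was below the filter. E-cadherin, encoded by Cdh1, is a junction protein of all epithelia and was also lower in FVB/N. Its arrays read 10.84, 11.03 and 11.30 in FVB/N and 11.79 to 13.01 in the other strains. Cdh1 was 1.23 ± 0.177 higher in BL6 than in FVB/N (adjusted p = 0.0073) and differed by -1.48 ± 0.177 between FVB/N and SV129 (adjusted p = 0.0028). The Cdh1 difference from SV129 passed in 21 of 21 alternatives, and that from BL6 missed the threshold without hypoxic BL6 array 5 and with the array number as a block. Between pressures Cdh1 fell by 0.71 (adjusted p = 0.0417), a call that held in 7 of 21 alternatives and in 2 of 9 that left out an array. The other pan-epithelial genes Epcam, Krt8 and Krt18 also had lower values in FVB/N than in both other strains, and none passed. Of 7 airway epithelial genes tested, 2 differed between BL6 and FVB/N. Muc5b, a secreted mucin, was 2.64 ± 0.330 higher in BL6 (adjusted p = 0.0037) and passed in all 20 alternatives that could test it. Bpifa1, a secreted airway protein, was 5.32 ± 0.927 higher in BL6 (adjusted p = 0.0195), a call that held in 14 of 20. Both were also higher in BL6 than in SV129, by 2.02 and 6.08 (adjusted p = 0.0139 and 0.0107), and 0 of the 7 passed between FVB/N and SV129. The part of epithelial content in the Gprc5a difference was not tested. Of 11 type 2 genes 0 passed in any comparison.

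Besides Gprc5a, the 19 other member probe sets showed no strain difference past the threshold. Their smallest adjusted p was 0.188 between BL6 and FVB/N, 0.130 between BL6 and SV129 and 0.198 between FVB/N and SV129. The widest of these differences belonged to Clic5 probe set 1431261_at. It read 10.89, 11.20 and 10.01 in BL6, 8.94, 10.56 and 8.65 in FVB/N, and 9.72, 8.95 and 9.21 in SV129, hypoxic arrays first. BL6 stood 1.32 ± 0.410 above FVB/N (adjusted p = 0.188) and 1.41 ± 0.410 above SV129 (adjusted p = 0.130), and the hypoxic FVB/N arrays alone lay 1.62 apart. Without hypoxic FVB/N array 6 these differences were 1.82 and 1.41, and both passed. Akap5 1431717_at was 1.38 ± 0.480 higher in FVB/N than in SV129 (adjusted p = 0.198), and 2.02 higher, past the threshold, without hypoxic SV129 array 5.

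Air pressure was compared across the 3 strains with strain as a term. None of the 20 member probe sets passed, where 3.76% of all probe sets did. Of the 20, 5 (25%) had an unadjusted limma p under 0.05, against 22.2% of all probe sets. The fitted difference, 50 kPa minus 85 kPa, was above 0 for 15 of the 20 (75%, against 53.8% of all probe sets), with a median of 0.23 beside 0.04 over all. Several of these probe sets read the same gene. With 1 probe set per gene, the brightest, 6 of 10 were above 0 and the median was 0.08, beside 0.03 over all. Without both arrays that carried kidney transcripts, 11 of the 20 probe sets were above 0 and the median was 0.10, beside 0.02 over all. The lone normoxic array of each strain is assumed in these fits to vary as the hypoxic arrays do.

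**Figure D3:**
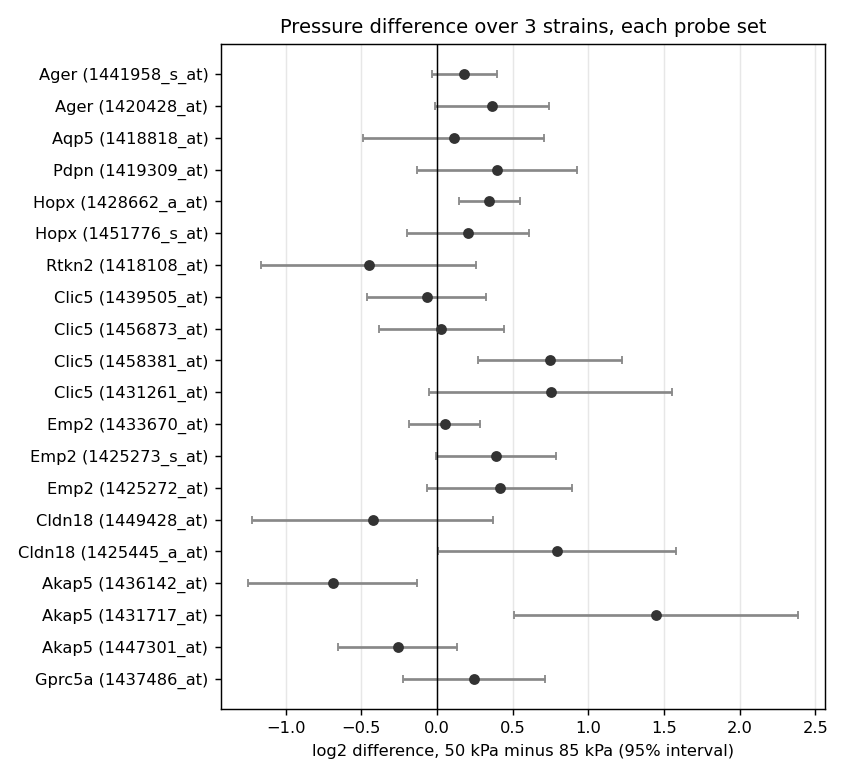
Difference between 50 and 85 kPa over the 3 strains (horizontal axis, log2) for each of the 20 probe sets (vertical axis), as the limma estimate with its unadjusted 95% interval. The interval spans 0 for 15 probe sets, and the points run from -0.69 to 1.45, both for Akap5.

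After quantile normalization the signals of the receptor RAGE were even across most arrays. Ager 1441958_s_at read 14.64 to 14.95 on the hypoxic arrays (median 14.83) and 14.72, 14.40 and 14.74 on the normoxic arrays of BL6, FVB/N and SV129. The difference was 0.18 ± 0.096 (adjusted p = 0.305). Ager 1420428_at read 13.89 to 14.21 in hypoxia and 13.90, 13.14 and 14.03 in normoxia, a difference of 0.36 ± 0.167 (adjusted p = 0.238). For both probe sets the groups overlapped, and the low normoxic reading was FVB/N array 1. Left as scaled by the authors, with no quantile normalization, all 6 hypoxic arrays lay above all 3 normoxic ones for both Ager probe sets. The same held for Hopx 1428662_a_at and Emp2 1433670_at, and the share over all probe sets was not computed at that scaling. Without that share the order cannot be read as particular to the members. These were the brightest member probe sets, with mean levels of 14.74 and 13.93 (Ager), 14.39 (Hopx) and 14.17 (Emp2). The part of array brightness was not tested. At the deposited scaling Ager 1441958_s_at read 26836 to 35759 in hypoxia and 20361 to 20801 in normoxia. It passed there with a difference of 0.61, as did 1036 of all 27022 probe sets in either direction. The difference of 1420428_at without both kidney-bearing arrays was 0.10.

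The water channel and the membrane glycoprotein varied between arrays of the same group. Aqp5 read 12.47 and 12.83 in hypoxic BL6, 12.36 and 12.53 in FVB/N, and 13.09 and 11.87 in SV129, against 12.74, 11.78 and 12.72 in normoxia. The pressure difference was 0.11 ± 0.265 (adjusted p = 0.839), less than the 1.23 between the hypoxic SV129 arrays. Pdpn read 11.54 and 12.05 in hypoxic BL6, 12.65 and 12.58 in FVB/N, and 12.61 and 12.63 in SV129, against 12.22, 11.68 and 11.94 in normoxia. Its hypoxic arrays were below the normoxic one in BL6 and above it in the other 2 strains, and the difference over strains was 0.40 ± 0.233 (adjusted p = 0.354). It was 0.81 without normoxic BL6 array 1 and 0.13 without normoxic FVB/N array 1, and neither passed.

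Hopx 1428662_a_at had the smallest adjusted p of the 20 probe sets in this comparison. Hypoxic arrays read 14.44 and 14.49 in BL6, 14.53 and 14.45 in FVB/N, and 14.51 and 14.61 in SV129. The normoxic arrays read 14.26, 13.94 and 14.28, so all 6 hypoxic arrays lay above all 3 normoxic ones, as for 6.53% of all probe sets. The difference was 0.35 ± 0.089 (adjusted p = 0.0663) and did not pass. Over the alternatives it ran from 0.24 to 0.75 with adjusted p from 0.0136 to 0.225, and it passed in 3 of them. Hopx 1451776_s_at read 13.50 to 13.67 in hypoxia and 13.72, 12.78 and 13.66 in normoxia, so its groups overlapped, and it differed by 0.21 ± 0.178 (adjusted p = 0.532). Without both kidney-bearing arrays the Hopx differences were 0.25 and -0.10.

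The fitted pressure differences of the Emp2 and of the Clic5 probe sets varied in size, and the probe sets were not compared by a test. Emp2 1433670_at lay between 14.06 and 14.23 in hypoxia and read 14.21, 13.89 and 14.31 in normoxia, a difference of 0.05 ± 0.103 (adjusted p = 0.809). Emp2 1425273_s_at and 1425272_at differed by 0.39 ± 0.176 and 0.42 ± 0.212 (adjusted p = 0.232 and 0.287). The normoxic FVB/N array was the lowest of the 9 for all 3 Emp2 probe sets. Without both kidney-bearing arrays the differences of 1425273_s_at and 1425272_at were 0.19 and 0.11. Clic5 1458381_at read 12.93, 13.03, 12.39, 13.26, 12.66 and 12.58 in hypoxia (BL6, FVB/N and SV129 in turn) and 12.46, 11.54 and 12.18 in normoxia. Every hypoxic array was above the normoxic array of its strain, as for 14.5% of all probe sets, and the difference was 0.75 ± 0.212 (adjusted p = 0.0846), or 0.49 without both kidney-bearing arrays (adjusted p = 0.344, range over alternatives 0.0391 to 0.344). Clic5 1439505_at and 1456873_at differed by -0.07 ± 0.174 and 0.03 ± 0.183 (adjusted p = 0.851 and 0.945), and 1431261_at by 0.75 ± 0.355 (adjusted p = 0.252).

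The claudin Cldn18 varied widely among the hypoxic arrays, and the fitted differences of its probe sets had opposite signs. Cldn18 1449428_at read 12.20, 12.68, 12.99, 12.55, 13.39 and 11.70 in hypoxia and 13.15, 12.49 and 13.37 in normoxia, a difference of -0.42 ± 0.353 (adjusted p = 0.519). Cldn18 1425445_a_at read 12.93, 13.08, 12.60, 13.12, 13.64 and 11.84 in hypoxia and 12.50, 11.51 and 12.22 in normoxia, a difference of 0.79 ± 0.348 (adjusted p = 0.220). The hypoxic SV129 arrays alone lay 1.69 and 1.79 apart, and without both kidney-bearing arrays the differences were -0.68 and 0.55. Without hypoxic SV129 array 5 the difference of 1425445_a_at was 1.06 and passed (adjusted p = 0.0459, range over alternatives 0.0459 to 0.597). Rtkn2 was also uneven in SV129, with 11.50 and 10.20 in hypoxia against 11.85 in normoxia. In BL6 it read 10.61 and 11.26 against 11.32, and in FVB/N 10.61 and 11.22 against 10.88, and the pressure difference was -0.45 ± 0.315 (adjusted p = 0.438). It ran from -0.69 without normoxic FVB/N array 1 to -0.17 without normoxic SV129 array 1.

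Akap5, which anchors protein kinase A near membrane receptors, had the widest differences in either direction, on different probe sets. Akap5 1431717_at read 11.54 and 11.64 in hypoxic BL6 against 10.17 in normoxia. In FVB/N it read 12.11 and 12.18 against 10.64. In SV129 it read 9.53 and 11.95 against 9.32. The hypoxic mean was higher by 1.41, 1.51 and 1.42 in BL6, FVB/N and SV129. Every hypoxic array was above the normoxic array of its strain, as for 14.5% of all probe sets. Over strains the difference was 1.45 ± 0.415 (adjusted p = 0.0873), and it was 1.78 and passed without hypoxic SV129 array 2 (adjusted p = 0.0153, range over alternatives 0.0153 to 0.275).

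Akap5 1436142_at read 10.51 and 10.86 in hypoxic BL6 against 12.01 in normoxia, 11.06 and 10.79 in FVB/N against 10.77, and 10.99 and 11.29 in SV129 against 12.04. It was thus lower on all 4 hypoxic arrays of BL6 and SV129 and not lower in FVB/N. Each strain was set against 1 normoxic array, and that of FVB/N carried kidney transcripts. The share of all probe sets with that order was not computed, so the order cannot be read as a strain difference. Over strains the difference was -0.69 ± 0.246 (adjusted p = 0.145). It fell past the threshold with array weights (-1.01), without normoxic FVB/N array 1 (-1.10, adjusted p = 0.0156) and without both kidney-bearing arrays (-0.99, with an adjusted p just under the threshold), where the range of the adjusted p over alternatives was 0.0156 to 0.441. The third probe set, 1447301_at, read 8.90 and 8.89 in hypoxic BL6 against 9.32, 8.85 and 8.77 in FVB/N against 8.58, and 8.62 and 8.72 in SV129 against 9.24, a difference of -0.26 ± 0.174 (adjusted p = 0.421). Which transcript or sequence each probe set reads was not analysed here. Of the 6 members with more than 1 probe set, Akap5, Clic5 and Cldn18 had fitted pressure differences of both signs.

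**Figure D4:**
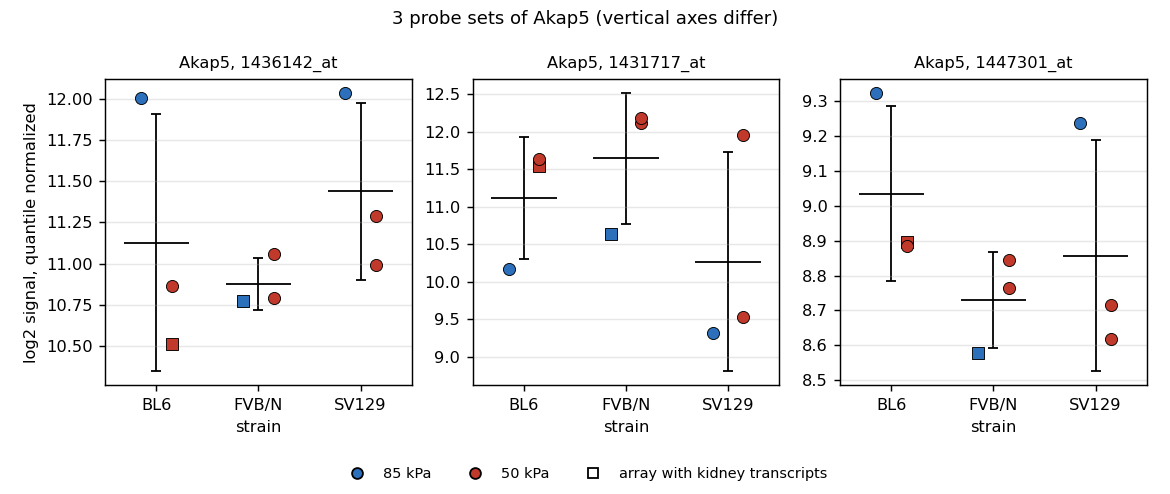
Level of the 3 Akap5 probe sets (vertical axes, log2 signal, which differ between panels) on each array by strain (horizontal axis), coloured by air pressure, with squares for arrays that carried kidney transcripts and black lines and bars for the mean ± SD of the 3 arrays of a strain. In the panel of 1431717_at the hypoxic points lie above the normoxic point in every strain, while in the panel of 1436142_at the hypoxic points of BL6 and SV129 lie below it.

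The series title states that the response to hypoxia depends on strain, and the difference between strains in the pressure effect was tested as an interaction. None of the 20 member probe sets passed, and of all 27022 probe sets 0 passed (0%). Unadjusted limma p-values were under 0.05 for 5 of the 20 (25%) and for 12.3% of all probe sets, and the adjusted p of the members ran from 0.213 to 0.999. With 3 residual degrees of freedom the design has little power for this test. On simulated data it recovered 0 of 100 changes of 1 and 0 of 100 changes of 2 (log2). The counts of 0 therefore do not show that the strains responded alike. Those 5 were Hopx 1451776_s_at, Pdpn, Ager 1420428_at, Akap5 1436142_at and Emp2 1425273_s_at, with limma adjusted p of 0.213, 0.234, 0.242, 0.244 and 0.403. For Hopx 1451776_s_at the mean of the hypoxic arrays minus the normoxic array was -0.16 in BL6, 0.88 in FVB/N and -0.10 in SV129. For Pdpn it was -0.43, 0.94 and 0.68, and for Ager 1420428_at 0.12, 0.94 and 0.03.

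The difference in FVB/N was above 0 for 20 of 20 probe sets and the highest of the 3 strains for 20 of 20, where 60.6% and 52.8% of all probe sets were. Its median was 0.62, beside 0.17 over all probe sets. In BL6 the difference was above 0 for 10 of 20 (median 0.00, against 51.7% of all) and in SV129 for 11 of 20 (median 0.04, against 51% of all). Each FVB/N difference rests on normoxic FVB/N array 1, which was the lowest of the 9 arrays for 14 of the 20 member probe sets and for 25.3% of all. With 1 normoxic array, a pressure effect in FVB/N and a property of that array cannot be told apart.

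**Figure D5:**
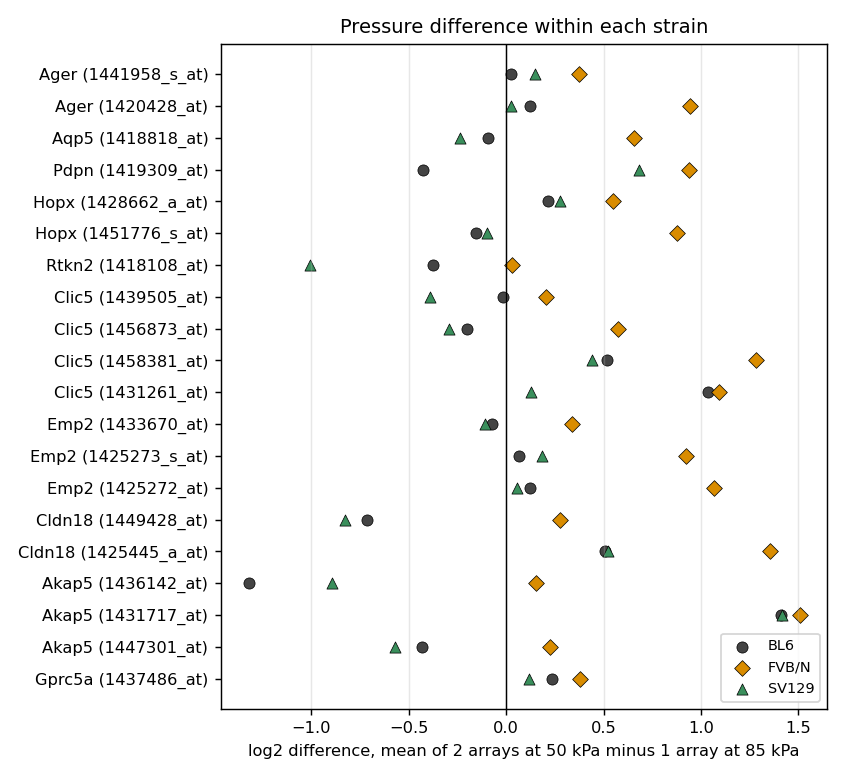
Mean of the 2 arrays at 50 kPa minus the 1 array at 85 kPa (horizontal axis, log2) in each strain, marked by colour and shape, for each of the 20 probe sets (vertical axis). The FVB/N diamond is to the right of 0 and the rightmost of the 3 for every probe set, while the BL6 and SV129 points fall on both sides of 0.

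A further 20 genes known from type 1 cells were each read by the brightest probe set. Between pressures 1 of 20 passed and rose, where 1.94% of all probe sets rose, and 16 of 20 differences were above 0, with a median of 0.26 beside 0.04 over all probe sets (0.08 beside 0.02 without both kidney-bearing arrays). Ndnf, a secreted neurotrophic factor, rose by 0.61 ± 0.136 (adjusted p = 0.0455), with 12.49 to 13.28 on the hypoxic arrays and 12.00 to 12.23 on the normoxic ones. Its call was lost in 8 of 9 fits that left out an array, all but the fit without hypoxic SV129 array 2, with differences over all alternatives from 0.41 to 0.73 and adjusted p from 0.0338 to 0.199. Without both kidney-bearing arrays Ndnf did not pass, and 1 gene of the list did, where 228 of all 27022 probe sets passed. That gene was Lmo7, which fell by 0.94 there and differed by -0.62 ± 0.223 over all 9 arrays (adjusted p = 0.146). The values next in order did not pass. They were 1.46 ± 0.355 for the integrin subunit Itgb6 (adjusted p = 0.0572), 0.55 ± 0.142 for Limch1 (0.0681), 0.65 ± 0.185 for the IGF binding protein Igfbp2 (0.0858) and 0.69 ± 0.200 for the matrix proteoglycan Spock2 (0.0878). Between strains 0 of 20 passed in any pair.

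Of 14 regulators of alveolar cell fate, 1 fell between pressures, where 1.82% of all probe sets fell. The Hippo kinase Lats2 fell by 0.83 on probe set 1439441_x_at (adjusted p = 0.0396), but its 1419679_at rose by 1.14 (adjusted p = 0.0474). The other Lats2 probe sets gave 0.81 (adjusted p = 0.0681), 0.48 and 0.06, so 4 of 5 were above 0 and the gene has no settled direction here. The DNA-binding partner of Yap1, Tead1, was 0.70 lower in BL6 than in SV129 (-0.70 ± 0.142, adjusted p = 0.0374), and its other probe set gave -0.52 (adjusted p = 0.510). Yap1 and Wwtr1 differed by 0.18 and 0.08 between pressures (adjusted p = 0.510 and 0.788).

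The RAGE ligands S100a8 and S100a9, abundant in neutrophils, were higher in FVB/N than in SV129 by 2.34 ± 0.449 and 2.70 ± 0.591 (adjusted p = 0.0271 and 0.0462). S100a8 read 12.58, 13.47 and 12.86 in FVB/N and 9.44, 10.48 and 11.96 in SV129. The call of S100a8 held in 15 of 21 alternatives and was lost when hypoxic BL6 array 5 or any 1 hypoxic array of FVB/N or SV129 was left out, with differences from 1.87 to 3.24. That of S100a9 held in 10 of 21, with differences from 1.87 to 3.81, and 6 of the 9 fits that left out an array lost it. Clec1b, the platelet receptor that podoplanin binds, was lower in SV129, with 7.29, 7.03 and 8.17 there against 9.20 to 10.14 on the other arrays. It was 1.80 ± 0.314 higher in BL6 (adjusted p = 0.0185) and 2.14 ± 0.314 higher in FVB/N (adjusted p = 0.0076). The first of these calls was lost when any 1 BL6 array or hypoxic SV129 array was left out, and the other passed in every fit that left out an array and missed the threshold only with the array number as a block. Pdpn itself differed by -0.46 ± 0.269 between BL6 and SV129 (adjusted p = 0.453).

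Cd44, a podoplanin partner, was 0.89 lower in FVB/N than in SV129 (-0.89, adjusted p = 0.0362), and its other probe sets gave -1.07 (adjusted p = 0.0227) and -0.39 (adjusted p = 0.636). Of 5 Akap5 partners tested, the kinase A catalytic subunit Prkaca fell by 0.83 between pressures on 1447720_x_at (adjusted p = 0.0185), while 1450519_a_at gave 0.02 (adjusted p = 0.976). The regulatory subunit Prkar2a was 0.70 lower in BL6 than in SV129 (-0.70, adjusted p = 0.0487), with -0.32 and 0.05 on its other probe sets. The calls of Lats2, Tead1, Cd44, Prkaca and Prkar2a held in 9, 11, 10, 16 and 4 of 21 alternatives, and each was lost without hypoxic BL6 array 5, among other arrays. In the lists of 4 aquaporins, 7 tight junction partners, 3 Emp2 relatives and 4 Clic5 relatives, 0 genes passed in any comparison over the 9 arrays. Without both kidney-bearing arrays 1 of 3 aquaporins tested passed between FVB/N and SV129, where 581 of all 27022 probe sets did. This was Aqp4, which was lower in FVB/N (-1.66 ± 0.282, adjusted p = 0.0245), where the 9 arrays gave -0.67 (adjusted p = 0.607). Lmo7 and Aqp4 were singled out after their values had been seen.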

How the data were processed

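Lung RNA was hybridised to Affymetrix-type arrays, per the labels' protocols. The deposited table gives a linear intensity for each probe set on each array; no source used here names the software behind it. The authors had scaled each array to a mean of 500, as the deposited values show once the top and bottom 2% are left out. Another 12 arrays named in the design text were not analysed here.

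Signals were transformed as log2(signal + 16) and quantile normalized, so fold changes are on that scale. From 45101 probe sets, 64 controls and then the dimmest 40% by mean were left out. Of the 45037 that are not controls, the platform annotation gave 34945 a single symbol, 932 several and 9160 none, and only the first kind named a gene. The number of arrays limits the precision.

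limma 3.58.1 in R 4.3.3 (lmFit, eBayes with an intensity trend) fitted strain and pressure over all 9 arrays (5 residual degrees of freedom). For the interaction each strain and pressure was its own group, 6 in all, with the spread from the hypoxic pairs (3 residual degrees of freedom). P-values were adjusted by the Benjamini-Hochberg method over all 27022 probe sets, with a threshold of 0.05. The scripts were tested on simulated data with 100 probe sets changed by 1 and 100 by 2 (log2). At these sizes the pressure test recovered 33 and 77. The test of BL6 against FVB/N recovered 14 and 72, and the interaction test 0 and 0.

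The members and the gene lists were chosen with earlier results of these data known. All probe sets of the members are named. From other lists, read by the brightest probe set, genes past the threshold and otherwise up to 4 by smallest p could be named. The main fits did not treat the array numbers as pairs. The deviations of the arrays numbered 2 correlated between strains at -0.026, -0.042 and -0.188. These values do not settle whether arrays of the same number belong together. The 21 alternatives varied scaling, pseudocount, filter, variance model, array weights, the arrays left out and the probe set per gene. No genome was used, and no positions are given.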

Additional observations from a re-analysis of the deposited data

Results flagged for a closer look

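In 2 of the 20 member probe sets, 1 of the 6 hypoxic arrays stood far from the other 5. Clic5 1439505_at read 12.40 on hypoxic SV129 array 5, a gap of 0.789 of the whole range. Akap5 1431717_at read 9.53 on hypoxic SV129 array 2, a gap of 0.756 of the whole range. Both gaps are above Dixon's 95% limit for 6 values, which chance alone passes in about 1 group of 20, and 20 probe sets were looked at. The limit takes the 6 values as 1 group and makes no allowance for strain. For Akap5 1431717_at, normoxic SV129 array 1 also read low, at 9.32.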

How the results depend on the processing

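Both Gprc5a differences from FVB/N passed in 21 of 21 alternatives. The number of member probe sets past the threshold between pressures, 0 as reported, was 4 with median centring, 2 with the deposited scaling only, 1 with the dimmest 60% left out, 1 with array weights, 1 without both arrays that carried kidney transcripts, and 0 to 1 when each array was left out. Over all probe sets the pressure calls numbered 1440 with median centring, 1036 with the deposited scaling only and 1871 with array weights. They numbered 1197 with the dimmest 60% left out and 228 without both arrays that carried kidney transcripts. The probe sets tested were 27022, or 18015 with the dimmest 60% left out. With median centring the median difference of all probe sets moved from 0.04 to 0.11 and that of the members from 0.23 to 0.45. The 4 called there were both Ager probe sets, Hopx 1428662_a_at and Clic5 1458381_at. Leaving out each array gave 1 to 2 calls between BL6 and FVB/N, 0 to 1 between BL6 and SV129, 1 to 2 between FVB/N and SV129, and 0 for the interaction. With the array number as a replicate block, the counts were 0, 1, 0, 1 and 0 in the same order, and the Gprc5a differences were 2.66 and -2.15. All normoxic arrays are numbered 1 and no hypoxic array is, and in that fit 0 of all probe sets passed between pressures, so its 0 for the members shows no stability, nor does the 0 for the interaction.

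The pressure differences of 6 member probe sets changed sign in some alternative, and the cause was not tested. Aqp5 was -0.033 with the block, -0.094 without both kidney-bearing arrays and -0.16 to 0.31 when each array was left out. Pdpn, at 0.40 the largest of them in the main fit, was -0.10 with array weights. Hopx 1451776_s_at was -0.10 without both kidney-bearing arrays and -0.13 to 0.39 over single arrays. Clic5 1439505_at was 0.070 with median centring, 0.045 with array weights and -0.20 to 0.10 over single arrays. Clic5 1456873_at was -0.052 with array weights, -0.10 with the block, -0.24 without both kidney-bearing arrays and -0.25 to 0.19 over single arrays. Emp2 1433670_at was -0.064 without both kidney-bearing arrays and -0.093 to 0.13 over single arrays. Of 54 strain differences with an unadjusted p of 0.05 or more (Gprc5a apart), 35 changed sign in some alternative, none of them above 0.27 in size, and 0 passed. Among 23 called values of other listed genes, 21 lost the call somewhere. Over all probe sets the pressure calls, 1016 as reported, numbered 3 to 1390 when each array was left out and 0 with the block.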
